A study of Mus musculus with 2 samples.

Results

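Complement genes of myeloid cells from a mouse lung tumor model were described: the 3 chains of C1q (C1qa, C1qb, C1qc), the alternative-pathway components C3, Cfb and Cfp, and the anaphylatoxin receptors C3ar1 and C5ar1. These 8 genes were taken by symbol from the 27998 genes of the deposited tables, and all of them had UMIs. Complement is a protein cascade that tags and clears particles, dying cells and microbes. C1q is the recognition unit of the classical pathway and, unlike most complement proteins, is made largely by macrophages rather than by the liver. C3 is the central component, factor B (Cfb) forms the convertase of the alternative pathway, and properdin (Cfp) stabilizes it. C3a and C5a, the small fragments released on activation, act on myeloid cells through the receptors encoded by C3ar1 and C5ar1.

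Leukocytes (CD45+) came from tumors of LLC (Lewis Lung Carcinoma) cells, a transplanted mouse lung cancer line, taken 14 days after subcutaneous implantation into 8-week-old mice of the C57/BL6 strain (given as 10 weeks of age). They were profiled on the 10x 3′ v2 platform. The library titled wt stands for mir-21 flox/flox control mice, and the library titled cko for mir-21 flox/flox; lysmCre mice, in which Cre under the LysM (Lyz2) promoter deletes the microRNA miR-21 from LysM-expressing cells, which are myeloid. Both groups therefore carry the floxed allele, and each library is a pool of 3 mice with no way to separate them, so that there is 1 library per group, no test between groups and no p-value, and intervals cover counting error only. The source labels give the genotypes the other way round from the titles, and the growth protocol names a sort for CD11b+, MHCII+, F4/80+ macrophages in place of CD45+. The groups below follow the titles.

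There were 2449 cells in the library labelled wt and 2718 in the library labelled cko, at median depths of 8359 and 8247 UMIs, and 5 cell barcodes occurred in both. After the filter and removal of likely doublets, 2397 and 2645 cells were used. T and NK cells, which the macrophage sort of the growth protocol would have removed, made up 187 and 218 of them. Mature miR-21 is not read by this assay. Lyz2, the gene whose promoter drives Cre, was at 17673 CPM (UMIs of the gene per 1000000 UMIs summed over the cells of a state) in macrophages of the library labelled wt and at 8417 CPM in those of the library labelled cko, and was likewise lower in the latter in classical monocytes, transitional cells and granulocytes. The deletion itself was not checked by this, and "the library labelled cko" is written throughout.

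States were gated on UMIs of other genes. Within mononuclear phagocytes (Csf1r, Fcgr1 and Adgre1), Ly6c2 separated monocytes, and the summed UMIs of Ms4a7, Trem2, Mrc1 and Cd72, called M here, separated macrophages. This gave 295 and 270 classical monocytes (Ly6c2 high, M low) in the libraries labelled wt and cko, 296 and 235 transitional cells (both high), 610 and 638 macrophages (Ly6c2 low, M high) and 329 and 361 cells low for both. A gate on Ace, Treml4 and Adgre4, genes of nonclassical monocytes, held 418 and 557 cells. Its cells with low M (185 and 198) had the nonclassical genes Eno3, Pglyrp1, Nr4a1 and Cd36 at a summed 556 and 516 CPM, no higher than T and NK cells (615 and 556 CPM), and the classical monocyte check genes (Ccr2, Plac8, Chil3 and Vcan) at 12714 and 11111 CPM, beside 12240 and 14075 CPM in classical monocytes. Of the classical check genes, Plac8 made up most of the sum, at 10776 and 8299 CPM in these low-M cells and 9346 and 8822 CPM in classical monocytes. Ccr2, Chil3 and Vcan were lower in the low-M cells than in classical monocytes in both libraries. The nonclassical genes were at 126 and 131 CPM in classical monocytes. Cells of the gate with high M (233 and 359) had the nonclassical genes at 120 and 123 CPM and the macrophage check genes (Apoe, Cd63, Cd81, Pltp and Gpnmb) at 3804 and 5856 CPM. The high-M cells thus went against the name, the low-M cells had genes of both kinds of monocyte, and the gate is called the Ace gate, in its low-M and high-M parts. The granulocyte gate (55 and 107 cells) had the neutrophil marker Ly6g at 282 and 221 CPM, but also the classical monocyte check genes at 8691 and 6678 CPM, with the monocyte receptor gene Ccr2 at 415 and 291 CPM. The sum of the macrophage check genes was higher in the library labelled cko in macrophages (4014 and 6987 CPM), transitional cells (1464 and 2836 CPM) and classical monocytes (428 and 972 CPM) as well, mostly through Apoe (2674 and 5648, 1121 and 2403, and 334 and 861 CPM). The list did not move as a whole: in macrophages Cd63 (649 and 559 CPM) and Gpnmb (16.5 and 12.3 CPM) were lower, in transitional cells Cd63 (166 and 151 CPM) and Pltp (52.9 and 51.8 CPM), and in classical monocytes Pltp (22.0 and 17.9 CPM). The part of this in the results below was not tested. Fibroblast, mast cell and B cell lists were each at or under 16 CPM in the classical, transitional and macrophage states, and tumor or epithelial keratin markers were at 2.04 to 7.46 CPM there. Endothelial markers were at 17.5 to 54.9 CPM.

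The C1q chains are encoded side by side on chromosome 4 (mm10, GENCODE vM21, minus strand), C1qb at 4:136880129-136886187, C1qc at 4:136889804-136893065 and C1qa at 4:136895917-136898803. Factor B (17:34856374-34862518) and C3 (17:57203970-57228136) lie on chromosome 17, C3ar1 on chromosome 6 (122847138-122856161), C5ar1 on chromosome 7 (16246743-16259540) and Cfp on the X chromosome (20925454-20931555), all on the minus strand. Cfb overlaps the protein-coding gene model Gm20547 on the same strand, so that its count depends on how shared reads were assigned. The 250 bases before the transcription start of C1qb (RefSeq, GRCm38.p6, chr4:136886201-136886450) and of C3 (chr17:57228137-57228386) are shown because these genes had opposite orders over monocytes and macrophages. Both are on the minus strand and written 5′ to 3′. Capitals mark any match on either strand to GAGGAA (an ETS-type, PU.1-like motif) or TTGCNNAA (a C/EBP type).
C1qb: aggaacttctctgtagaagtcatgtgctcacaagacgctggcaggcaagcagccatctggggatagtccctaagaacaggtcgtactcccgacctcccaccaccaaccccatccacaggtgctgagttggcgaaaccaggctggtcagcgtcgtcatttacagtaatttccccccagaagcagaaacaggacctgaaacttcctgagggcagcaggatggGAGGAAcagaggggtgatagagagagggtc
C3: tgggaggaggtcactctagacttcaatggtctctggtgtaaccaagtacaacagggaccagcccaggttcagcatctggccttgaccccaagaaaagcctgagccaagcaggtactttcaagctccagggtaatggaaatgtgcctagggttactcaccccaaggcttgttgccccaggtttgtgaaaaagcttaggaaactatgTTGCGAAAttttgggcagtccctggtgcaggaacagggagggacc
The C1qb window held GAGGAA and the C3 window TTGCNNAA. Of 32851 RefSeq promoters of the same length, 23.3% held GAGGAA and 9.56% TTGCNNAA. Windows of 6 of the 8 genes were in the table. These are matches of letters and say nothing on binding.

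Among the 8 genes, C1q had the largest differences between macrophages and classical monocytes. C1qa, the A chain, was at 289 and 226 CPM in classical monocytes of the libraries labelled wt and cko, at 1411 and 1252 CPM in transitional cells, at 3015 and 3186 CPM in macrophages and at 3774 and 4268 CPM in the high-M cells of the Ace gate. C1qb followed with 483 and 570 CPM, 2040 and 1862 CPM, 3934 and 4257 CPM, and 4963 and 5762 CPM. C1qc was at 214 and 219 CPM, 974 and 907 CPM, 2269 and 2340 CPM, and 3074 and 3398 CPM. For each chain the 4 states had this same order in both libraries, with no overlap of the 95% Poisson intervals between neighbouring states. These intervals take each UMI as independent and do not cover the spread between cells. Macrophages stood above classical monocytes by 3.38 for C1qa, 3.03 for C1qb and 3.41 for C1qc on the log2 scale in the library labelled wt, and by 3.82, 2.90 and 3.42 in the library labelled cko.

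**Figure D1:**
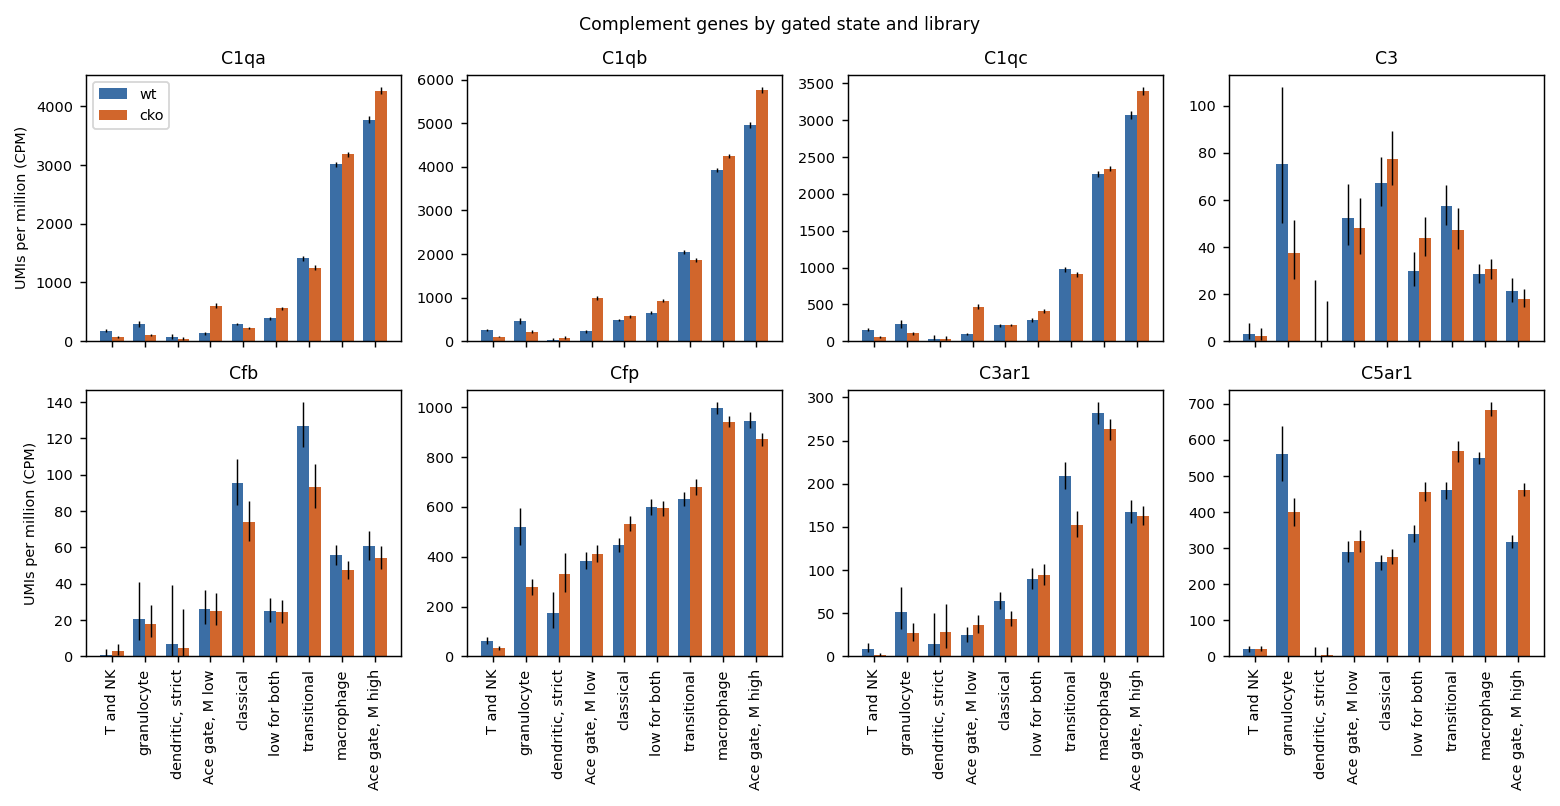
CPM (vertical axes from 0, a scale for each gene) of the 8 complement genes in 9 gated states (horizontal axis), with a bar for the library labelled wt and one for the library labelled cko, and exact 95% Poisson intervals of the summed UMIs as error bars. The C1q chains are highest in macrophages and high-M cells of the Ace gate, C3 in classical monocytes and, in the library labelled wt, granulocytes, and Cfb in transitional cells.

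C1q UMIs were also found in cells that should lack them, and their source was not tested. T and NK cells, taken here as the floor, had summed C1q at 580 and 234 CPM, of which 445 of 787 UMIs in the library labelled wt came from 1 cell. Without the top cell of each library the level was 256 and 210 CPM. After thinning each cell to 3000 UMIs, 43.3% (95% Clopper-Pearson interval 36.1 to 50.7) and 49.1% (42.3 to 55.9) of T and NK cells still had a C1q UMI, against 63.1% and 78.0% before thinning, at median depths of 5753 and 6496 UMIs. Classical monocytes, at 48.5% and 52.6% after thinning and median depths of 8129 and 8373 UMIs, were not separable from this floor by the share of positive cells. Macrophages, at 80.0% and 82.6%, were above it.

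States differed in their share of C1q-high cells. In macrophages the summed C1q UMIs per 10000 fell into a low and a high group of cells: 38.2% and 34.8% of macrophages had under 10 per 10000, 8.85% and 8.46% had 10 to 50, and 53.0% (323 of 610) and 56.7% (362 of 638) had at least 50. The last share was 5.42% and 5.56% in classical monocytes, 31.8% and 23.0% in transitional cells, and 64.8% and 74.4% in high-M cells of the Ace gate. Macrophages with under 10 per 10000 had summed C1q at 212 and 220 CPM, a range that the limit itself fixes and that lies beside the 256 and 210 CPM of T and NK cells. These classes are ranges of 1 score and not cell types, and 54 macrophages in each library lay between the limits.

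**Figure D2:**
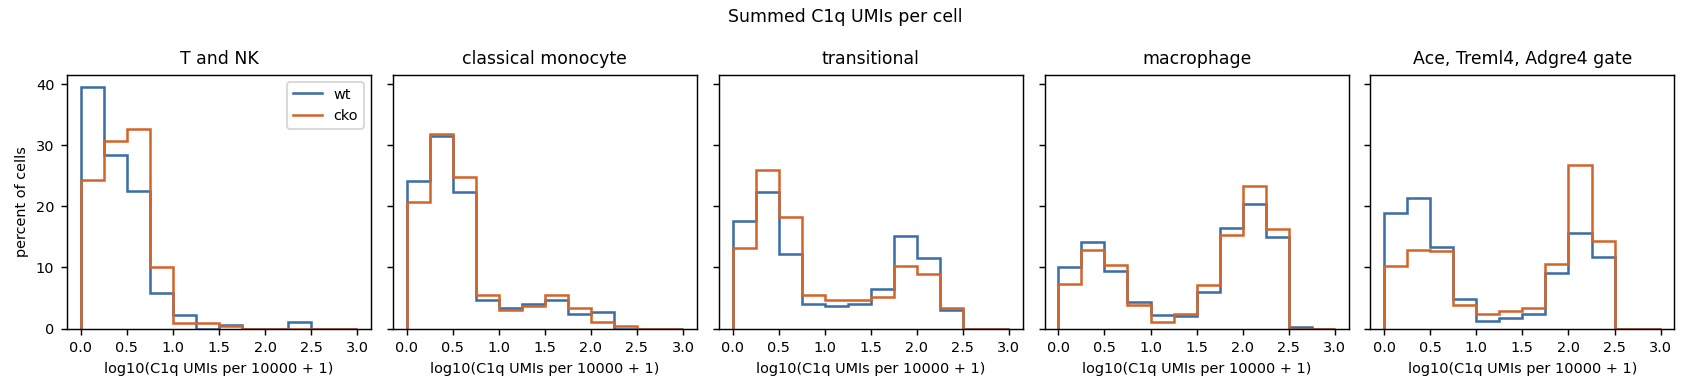
Percent of cells (vertical axis) by summed C1q UMIs per 10000 UMIs of the cell (horizontal axis, log10 of the value plus 1, in bins of 0.25) in T and NK cells, 3 Ly6c2 and M states and the Ace gate, with a line for each library. T and NK cells and classical monocytes lie mostly to the left, and transitional cells, macrophages and the Ace gate each show a left and a right group with few cells between.

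Macrophage subgates differed in the size of the C1q-high group. With UMIs of both the Vcam1, Ccl8 and Folr2 set (genes of resident-like macrophages) and the Cd300e, Clec4b1 and Pparg set, 98 of 101 and 105 of 112 macrophages had at least 50 C1q UMIs per 10000, and summed C1q was at 16898 and 16726 CPM. With neither set, 32.8% and 35.5% did, and summed C1q was at 4462 and 4641 CPM. Cells with both sets were deeper (medians of 17773 and 15847 UMIs) than cells with neither (8451 and 8174), and gates on raw UMIs take deeper cells more readily. The part of depth in this difference was not tested.

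The chains kept close proportions between the libraries in macrophages and transitional cells. Of the C1q UMIs of macrophages, 32.7% and 32.6% were C1qa, 42.7% and 43.5% C1qb, and 24.6% and 23.9% C1qc. Transitional cells had C1qb at 46.1% and 46.3%. In classical monocytes the libraries differed more, with C1qb at 49.0% and 56.1% and C1qa at 29.3% and 22.3%. One UMI of a 3′ library counts 1 molecule whatever its length, and the capture of each chain's 3′ end is not known, so that these shares compare states and not the amounts of the chains.

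C3 had the opposite order. It was at 67.3 and 77.3 CPM in classical monocytes, 57.5 and 47.4 CPM in transitional cells, 28.4 and 30.6 CPM in macrophages, and 21.3 and 18.1 CPM in high-M cells of the Ace gate. The low-M cells of that gate were at 52.5 and 47.9 CPM, and T and NK cells at 2.95 and 2.26 CPM. Macrophages stood below classical monocytes, with log2 ratios of -1.24 (95% interval -1.55 to -0.94) and -1.34 (-1.63 to -1.05), and low-M cells of the Ace gate stood above high-M cells, with a log2 ratio of high-M over low-M of -1.30 and -1.40. C3 was sparse: 23.9% and 20.5% of macrophages and 36.6% and 43.0% of classical monocytes had a UMI. After thinning these shares were 10.2% and 9.09% in macrophages and 17.6% and 20.4% in classical monocytes, against 1.07% and 0.459% in T and NK cells.

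Cfb was highest in transitional cells. Its levels were 95.4 and 73.9 CPM in classical monocytes, 127 and 93.2 CPM in transitional cells, 55.6 and 47.3 CPM in macrophages, and 60.6 and 54.2 CPM in high-M cells of the Ace gate. Low-M cells of the Ace gate were lower, with 33 and 35 UMIs in all (95% intervals of 17.8 to 36.3 and 17.4 to 34.8 CPM), and cells low for both at 24.8 and 24.3 CPM. T and NK cells held 1 and 5 Cfb UMIs in all. Classical monocytes and transitional cells did not overlap in their intervals in the library labelled wt (83.6 to 108 and 115 to 140 CPM) and did in the library labelled cko (63.3 to 85.8 and 81.6 to 106 CPM).

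Cfp was broad among myeloid cells and highest in macrophages. It was at 447 and 532 CPM in classical monocytes, 631 and 679 CPM in transitional cells, and 996 and 942 CPM in macrophages, where 97.4% and 97.6% of cells had a UMI. High-M cells of the Ace gate were at 947 and 871 CPM, and low-M cells at 385 and 411 CPM. Macrophages stood above classical monocytes by 1.16 (1.06 to 1.25) and 0.82 (0.74 to 0.91) on the log2 scale, so that a difference of 1, the limit used here between states, was passed in the library labelled wt and not in the library labelled cko. T and NK cells were at 61.2 and 31.6 CPM.

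C3ar1, the C3a receptor, was at 64.0 and 43.6 CPM in classical monocytes, 209 and 153 CPM in transitional cells and 282 and 263 CPM in macrophages. It was lower in high-M cells of the Ace gate, at 167 and 162 CPM, and 24.3 and 36.5 CPM in the low-M cells. The log2 ratio of high-M cells of the Ace gate over macrophages was -0.75 (-0.88 to -0.62) and -0.70 (-0.81 to -0.58), intervals below 0 that do not reach the limit of 1 used between states.

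C5ar1, the C5a receptor, was at 261 and 276 CPM in classical monocytes, 460.5 and 568 CPM in transitional cells and 550 and 684 CPM in macrophages. High-M and low-M cells of the Ace gate were at 318 and 462 CPM and at 290 and 320 CPM. The log2 ratio of high-M cells over macrophages was -0.79 and -0.57, likewise short of that limit. The ratio of macrophages over classical monocytes was 2.14 and 2.59 for C3ar1 and 1.08 and 1.31 for C5ar1.

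Counted over the 8 genes, 6 in the library labelled wt (all but C3 and Cfb) and 5 in the library labelled cko (also without Cfp) were higher in macrophages than in classical monocytes by a log2 ratio of at least 1 with an interval above 0. Of all genes with at least 50 UMIs over both states, 7.87% (643 of 8172) and 7.67% (630 of 8217) were. The median log2 ratio over the 8 genes was 1.65 and 1.95, beside 0.08 and 0.07 over all genes tested. C3 was lower by at least 1 in both libraries, as were 3.32% and 3.38% of all genes tested. Transitional cells were above classical monocytes by this limit for C1qa, C1qb, C1qc and C3ar1 in the library labelled wt and for these and C5ar1 in the library labelled cko, beside 1.57% and 1.89% of all genes.

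Granulocytes had a complement profile led by C5ar1 and Cfp. C5ar1 was at 560 and 399 CPM, with a UMI in 96.4% and 88.8% of cells, and Cfp at 518 and 278 CPM. C3 was at 75.2 and 37.4 CPM, C3ar1 at 51.8 and 26.6 CPM, and Cfb at 20.7 and 17.7 CPM. Summed C1q was at 977 and 423 CPM, but 4 and 2 cells held at least 50 C1q UMIs per 10000, and 50.9% and 47.7% of thinned granulocytes had a C1q UMI, with intervals (37.1 to 64.6 and 37.9 to 57.5) that overlap those of T and NK cells. Over classical monocytes, C5ar1 was higher by 1.10 (0.87 to 1.33) and 0.53 (0.35 to 0.72) on the log2 scale, and Cfb lower, with log2 ratios of -2.20 and -2.06.

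Dendritic gates were small, and part of their cells carried macrophage genes. The 9 and 10 cells gated on Xcr1 and Clec9a (cDC1) had summed C1q up to 484 and 539 UMIs in a cell, but 1 and 2 of them remained once cells with over 2 summed UMIs of Csf1r, Fcgr1 and Adgre1 or with over 1 UMI of the B cell gene Cd79a were left out. Over the 3 dendritic gates 16 and 25 such strict cells were left, and these held 0 to 4 C1q UMIs each, at 140 and 140 CPM summed. C3 was at 0 UMIs in them, which allows up to 21.0 and 14.0 CPM at 3 counts per library, and C5ar1 at 0 and 1 UMI. Cfp was at 175 and 330 CPM in them, and differed by gate. Of the 8 and 16 cells gated on Flt3 and Cd209a (cDC2), 4 and 8 were strict, and these had Cfp at 312 CPM (95% interval 175 to 514) and 863 CPM (660.3 to 1109), with a UMI in each cell, against 440 and 705 CPM over the whole gate. The 11 and 15 strict mature dendritic cells were at 53.4 and 56.0 CPM, beside 61.2 and 31.6 CPM in T and NK cells.

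Between the libraries the 8 genes differed in different ways by state. On the log2 scale C5ar1 was higher in the library labelled cko by 0.32 (95% interval 0.25 to 0.38) in macrophages, 0.30 (0.20 to 0.41) in transitional cells, 0.54 (0.44 to 0.64) in high-M cells of the Ace gate and 0.43 (0.29 to 0.56) in cells low for both, and by 0.08 (-0.08 to 0.24) in classical monocytes. In the 4 macrophage subgates it was higher by 0.27 to 0.51, and as a mean over cells, in place of summed UMIs, it was higher by 0.24 in macrophages, under the limit of 0.25 used below. In transitional cells it was past that limit in 5 of 8 alternatives (other gates, cells, scaling, averaging or gene minimum), with a range of 0.21 to 0.32. Of these 8, the lower minimum of UMIs for a gene to be counted leaves each log2 ratio unchanged by construction. In the tallies of 8 for single genes, here and below, it repeats the main result and tests nothing. In classical monocytes C5ar1 was at 0.34 and past the limit with the minimums of the gates doubled. The share of thinned macrophages with a C5ar1 UMI was 65.7% (61.8 to 69.5) in the library labelled wt and 72.4% (68.8 to 75.8) in the library labelled cko. With 1 pool of mice per genotype, a difference between these pools and one between genotypes cannot be told apart.

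**Figure D3:**
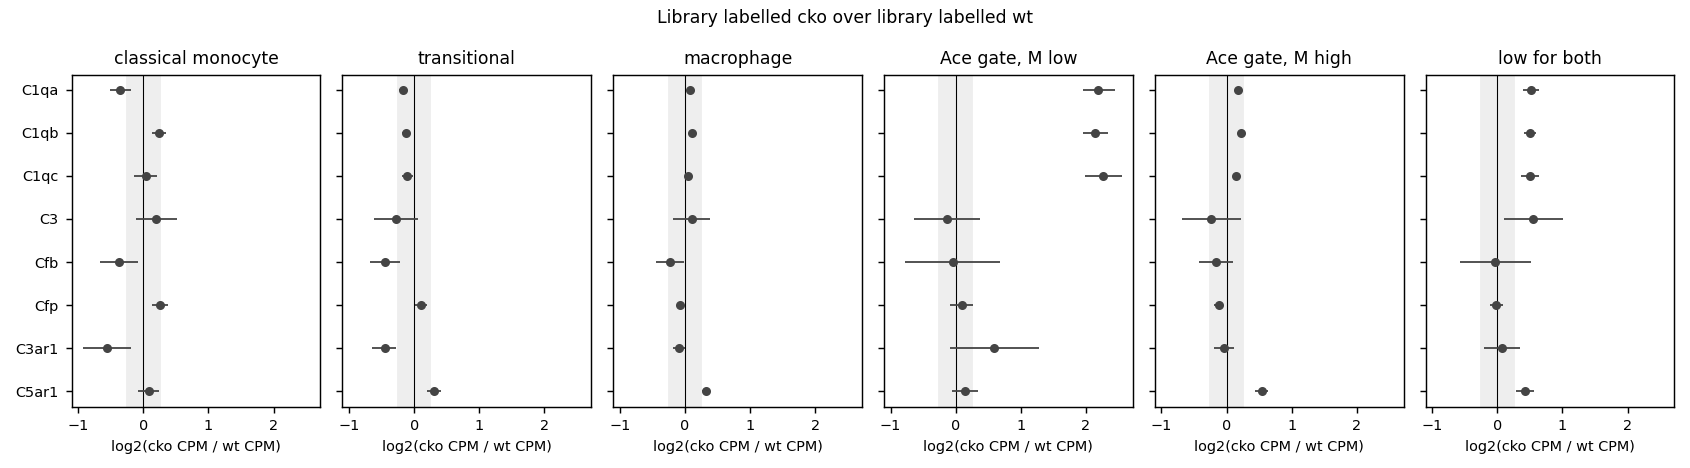
Log2 ratio of CPM, library labelled cko over library labelled wt (horizontal axes), for the 8 genes in 6 states, with exact 95% conditional binomial intervals that cover counting error only, and a grey band from -0.25 to 0.25. C5ar1 lies right of the band in 4 of the 6 states, C3ar1 and Cfb left of it in classical monocytes and transitional cells, and the C1q chains above 2 in low-M cells of the Ace gate.

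C3ar1 and Cfb were lower in the library labelled cko in the Ly6c2-high states, but 2 of these values depended on the gates. Cfb was lower there in cells low for interferon-response genes and not in cells high for them, as given below. The log2 ratios of C3ar1 were -0.55 (-0.93 to -0.19) in classical monocytes, -0.46 (-0.64 to -0.27) in transitional cells and -0.10 (-0.19 to -0.01) in macrophages. Those of Cfb were -0.37 (-0.66 to -0.08), -0.45 (-0.68 to -0.21) and -0.23 (-0.45 to -0.02). With the minimums of the gates doubled, C3ar1 in classical monocytes was at -0.14 and Cfb in transitional cells at -0.02, both under the limit. With cells of at least 5000 UMIs alone, Cfb in classical monocytes was at -0.27, beyond 0.25 but with an interval of -0.57 to 0.03 that includes 0. C3 was within 0.28 in either direction in these 3 states, with intervals that include 0, but in transitional cells its -0.28 became -0.65 with doubled minimums and passed the limit in 3 of 8 alternatives. Cfp was higher by 0.25 (0.13 to 0.37) in classical monocytes, at the limit itself, and passed it in 5 of 8 alternatives (0.22 to 0.27).

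The C1q chains were nearly level over all macrophages, with log2 ratios of 0.08, 0.11 and 0.04 for C1qa, C1qb and C1qc, and were -0.17, -0.13 and -0.10 in transitional cells. There, with gates on UMIs per 10000, they were at -0.57, -0.36 and -0.41, each past the limit, and C1qa and C1qc passed it with the mean over cells too, at -0.34 and -0.30, as did C1qa with doubled minimums, at -0.32. Among the macrophage subgates, cells with the Vcam1 set alone (87 and 73) had the chains higher in the library labelled cko by 0.26, 0.30 and 0.30, and C3 by 1.09 (0.45 to 1.76, from 34 and 55 UMIs), so that with C5ar1 5 of the 8 genes passed the limit there, beside 11.9% of 4625 genes. In the other 3 subgates the chains lay between -0.09 and 0.20. In classical monocytes they did not move together, at -0.36, 0.24 and 0.03, and with gates on UMIs per 10000 were at 0.10, 0.40 and 0.39. In low-M cells of the Ace gate all 3 were higher in the library labelled cko, by 2.19 (1.95 to 2.44), 2.14 (1.96 to 2.33) and 2.26 (1.98 to 2.55). There, 4 of 185 cells of the library labelled wt and 26 of 198 of the library labelled cko had at least 50 C1q UMIs per 10000, 2.16% and 13.1%. In the library labelled wt 94.6% of these cells had under 10 per 10000, beside 97.9% of T and NK cells. Each chain was also below classical monocytes there by at least 1 on the log2 scale. The ratios thus have a denominator near the floor. The alternatives were run on the whole Ace gate, where C1qa ranged from 0.11 to 0.57, and not on its low-M cells. The macrophage check genes in these low-M cells moved the same way, from 634 to 1856 CPM in sum, of which Apoe was 405 and 1422 CPM, with all 5 genes higher in the library labelled cko, and their part in the C1q difference was not tested. In cells low for both, the chains were higher by 0.51, 0.51 and 0.50, and C3 by 0.55 (0.11 to 1.00), with a range of 0.30 to 0.67 over the alternatives.

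With a log2 ratio of at least 0.25 in either direction and an interval on that side of 0, 4 of the 8 genes differed in classical monocytes (C1qa, Cfb and C3ar1 lower, Cfp higher), beside 10.2% of the 6393 genes tested. In transitional cells 3 did (Cfb and C3ar1 lower, C5ar1 higher), beside 9.29% of 6891 genes, and in macrophages 1 did (C5ar1), beside 10.5% of 9047 genes, a count near the background. Low-M cells of the Ace gate had 3 (9.44% of all genes tested), the high-M cells 1 (10.8%) and cells low for both 5 (8.84%). The median log2 ratio over the 8 genes was 0.06 in classical monocytes, -0.15 in transitional cells and 0.06 in macrophages, and over all genes tested 0.03, 0.04 and 0.02.

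In granulocytes, the 6 genes with at least 50 UMIs were all lower in the library labelled cko, with log2 ratios of -1.54, -1.06 and -1.13 for the C1q chains, -1.01 for C3, -0.90 for Cfp and -0.49 for C5ar1. Over the alternatives C3 ranged from -1.10 to -0.26, Cfp from -1.28 to -0.16 and C5ar1 from -1.14 to 0.27. The C1q values include the 4 and 2 cells with at least 50 C1q UMIs per 10000, and the chains were lower in the library labelled cko in T and NK cells too, by log2 ratios of -1.38, -1.22 and -1.38, with the cell of 445 UMIs counted. Most of that T and NK difference came from this cell: summed C1q without the top cell of each library, given above, differed much less. However, 33.9% of the 3364 genes tested differed by the same limit in this gate. The granulocytes of the library labelled cko had the keratin and Epcam list at 506 CPM against 285 CPM, and the macrophage check genes at a summed 1130 against 682 CPM, mostly through Cd63 (561 against 228 CPM). Their classical monocyte check genes were lower, at 6678 against 8691 CPM, the direction of the complement genes. They were also shallower (a median of 5335 UMIs against 6565), and the part of these in the differences was not tested.

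Cfb was higher in cells rich in interferon-response UMIs, in each of 3 states and both libraries. Cells with at least 10 UMIs per 10000 of Ifit1, Ifit2, Ifit3, Rsad2 and Isg15 were set against the others of the same state and library. In classical monocytes Cfb was at 165 CPM in interferon-high and 63.7 CPM in interferon-low cells of the library labelled wt, and at 197 and 32.5 CPM in the library labelled cko. In transitional cells these levels were 170 and 107 CPM, and 176 and 59.7 CPM. In macrophages they were 101 and 49.2 CPM, and 74.8 and 42.9 CPM. All 6 log2 ratios were above 0 with their intervals: 1.37 (0.99 to 1.75) and 2.60 (2.13 to 3.08) in classical monocytes, 0.67 (0.38 to 0.96) and 1.56 (1.18 to 1.95) in transitional cells, and 1.04 (0.68 to 1.39) and 0.80 (0.41 to 1.18) in macrophages. One classical monocyte of the library labelled cko held 37 of the 173 Cfb UMIs there, and without the cell with the most Cfb UMIs on each side the ratio was 2.19 (1.67 to 2.72). The 197 CPM includes that cell. In both Ly6c2-high states Cfb was thus lower in the library labelled cko in interferon-low cells alone. Interferon-high cells were 97 of 295 and 68 of 270 classical monocytes of the libraries labelled wt and cko, and 96 of 296 and 69 of 235 transitional cells. The part of these shares in the difference of Cfb between libraries was not tested.

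**Figure D4:**
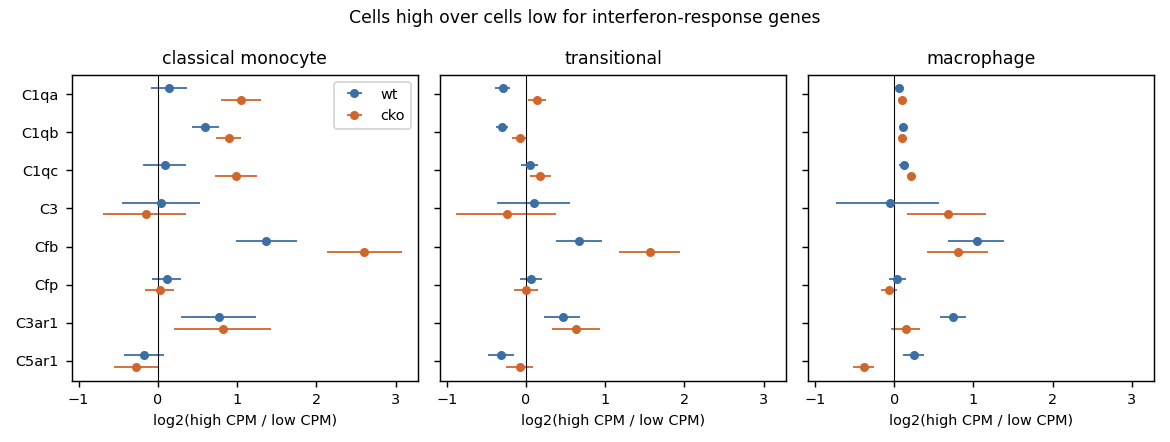
Log2 ratio of CPM in cells high over cells low for 5 interferon-response genes (horizontal axes) for the 8 complement genes in 3 states, with a point for each library and exact 95% conditional binomial intervals. Cfb lies right of 0 in all 3 states and both libraries, C3ar1 to a smaller extent, and Cfp lies near 0.

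C3ar1 was higher in interferon-high cells by 0.77 and 0.82 in classical monocytes, 0.46 and 0.63 in transitional cells and 0.74 and 0.14 in macrophages on the log2 scale, the last with an interval of -0.05 to 0.33. C5ar1 was at 0.25 (0.12 to 0.38) in macrophages of the library labelled wt and at -0.39 (-0.52 to -0.26) in those of the library labelled cko, and between -0.32 and -0.08 in the other 2 states of both libraries. C3 was at -0.05 (-0.73 to 0.57) and 0.68 (0.16 to 1.16) in macrophages, from 24 and 44 UMIs in interferon-high cells, and between -0.24 and 0.10 in the other 2 states. Cfp lay between -0.07 and 0.11 in every state and library. The C1q chains lay between -0.30 and 0.22 in transitional cells and macrophages, and in interferon-high classical monocytes were at 0.15, 0.60 and 0.08 in the library labelled wt and at 1.05, 0.89 and 0.99 in the library labelled cko. With doubled minimums C1qa in transitional cells was at -0.59 and 0.93 in the libraries labelled wt and cko. By a log2 ratio of at least 1, Cfb was past the limit in 4 of the 6 comparisons and C1qa in 1, classical monocytes of the library labelled cko. Of all genes 3.94% and 4.49% were in classical monocytes of the libraries labelled wt and cko, 3.26% and 3.41% in transitional cells, and 3% and 2.41% in macrophages. Over 5 alternatives C1qa in classical monocytes of the library labelled cko ranged from 0.57 to 1.08 and passed the limit in 3.

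C1q-high macrophages were also set against C1q-low macrophages for the other 5 genes, of which Cfb in the library labelled wt alone passed the limit of 1, beside 2.83% and 4.22% of all genes that were higher by it. Cfb was at 73.8 and 54.7 CPM in macrophages with at least 50 C1q UMIs per 10000 and at 23.7 and 29.5 CPM in those with under 10, log2 ratios of 1.64 (1.21 to 2.09) and 0.89 (0.47 to 1.33). C3ar1 was higher by 0.53 and 0.59, and Cfp by 0.24 and 0.31. C5ar1 was above 0 in both libraries without passing the limit. C3 went the other way in the library labelled wt, at -0.98 (-1.41 to -0.55), and in the library labelled cko was at -0.14 (-0.59 to 0.33). C1q-high cells were the deeper ones, with medians of 11956 and 10830 UMIs against 8379 and 8060.

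The other genes of the system were looked at as a list of 41 (proteases, regulators, terminal components and receptors), of which 40 were found by symbol, 13 had at least 100 UMIs over the gated cells and 8 had none. The terminal components (Hc, C6, C7, C8a, C8b, C8g and C9) held 0 to 31 UMIs each. In macrophages, of 12 listed genes with at least 50 UMIs, Itgax (the alpha chain of complement receptor 4) was higher in the library labelled cko, at 93.8 against 77.8 CPM. Fcna (ficolin A, a recognition molecule of the lectin pathway) was lower, at 19.4 against 36.4 CPM, and 10 did not pass the limit of 0.25 with an interval on that side of 0. Of these, C4b (8.18 against 5.94 CPM, from 57 and 42 UMIs) and C5ar2 (8.18 against 6.22 CPM, from 57 and 44 UMIs) were higher by over 0.25 with intervals that include 0. For Fcna the subgates went opposite ways: it was lower in cells with both sets, at 29.8 against 108 CPM, and higher in cells with the Vcam1 set alone, at 63.2 against 41.5 CPM (log2 ratio 0.61, 0.05 to 1.17). The median log2 ratio over the 12 was 0.09, beside 0.02 over all genes tested. In transitional cells Lrp1 was past the limit, of 10 genes, at 111 against 91.3 CPM, and in classical monocytes Cd93, of 9, at 112 against 93.4 CPM, both higher in the library labelled cko. Against the 10.5%, 9.29% and 10.2% of all genes that differed in these states, the counts of 2 of 12, 1 of 10 and 1 of 9 are near the background.

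Between states, Fcna went with M, with 1.63 and 0.427 CPM in classical monocytes and 36.4 and 19.4 CPM in macrophages. C1ra, a protease that binds C1q, Itgax and C1qbp, a C1q-binding protein, were higher in macrophages than in classical monocytes by at least 1 on the log2 scale in both libraries, and Cd93 in the library labelled wt (with Fcna, 5 of 11 listed genes with at least 50 UMIs over both states, and 4 of 12 in the library labelled cko, beside the 7.87% and 7.67% of all genes given above). None of these was lower by that limit. Fcnb (ficolin B), which had under 50 UMIs and so did not enter these counts, was lower in macrophages, with 26 UMIs in classical monocytes and 0 in macrophages of the library labelled wt (a log2 ratio of at most -4.64 with the 0 set to 3 counts) and 27 and 8 in the library labelled cko (-3.33, -4.68 to -2.15).

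The genes whose levels were most like each complement gene were found by Pearson's r of log2(CPM + 1) over 16 profiles of a state in a library, among 6387 genes with at least 500 UMIs. The profiles share their libraries and differ in depth, and r is a description. The nearest genes to summed C1q were Mmp13 (0.96), Rgl1 (0.95), Ccl8 (0.94, also used in a gate), Hpgds (0.94) and Pf4 (0.94). C3 was most like Atp6v1e1 (0.97), Chmp3 (0.96) and Plaur (0.95), and Cfb like Slc7a8 (0.95), Fcgr1 (0.95, a gate gene) and Camk2d (0.94). Cfp was most like Cd68 (0.98), AF251705 (0.97) and Hlx (0.97), C3ar1 like Lair1 (0.96), Tlr1 (0.96) and Aif1 (0.95), and C5ar1 like Aprt, Fgd4 and Nlrp3 (each 0.97).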

How the data were processed

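The authors deposited UMI counts per gene and cell for 2 libraries, made with Cell Ranger on mm10 and analysed with Seurat per the labels (versions not given in the sources used here). No other normalization had been applied. Cells with under 200 genes or over 10% mitochondrial UMIs were removed (4 and 14). Scrublet (scanpy 1.11.5) called 7 of 5149 cells by its own threshold, which was taken as too few without a test. The highest-scoring 1.96% and 2.17% of cells were removed instead. UMIs were summed per state and library and given as CPM with exact Poisson intervals. Ratios carry exact 95% conditional binomial intervals, past the limit at a log2 ratio of 0.25 (libraries) or 1 (states) with the interval on that side of 0. The calculation was run on counts simulated as Poisson, the model these intervals assume. UMIs clustered in cells were not simulated. Gates used UMIs of non-complement genes. The split of the Ace gate, the strict dendritic cells, the C1q classes and the values without a top cell were added after seeing the data. The members and lists were chosen with earlier results of these data known. Of the fixed lists, 3 genes are not reported here. All 8 genes are named, others by at least 100 UMIs or by likeness. Python 3.11.15, scipy 1.17.1 and matplotlib 3.10.9 were used.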

Additional observations from a re-analysis of the deposited data

Results flagged for a closer look

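Some genes differed between the libraries in opposite directions in different states, and these differences between states were not tested. On the log2 scale of the library labelled cko over the library labelled wt, C1qa was at -0.36 in classical monocytes and -1.54 in granulocytes against 0.51 in cells low for both. C1qb was at -1.06 in granulocytes and 0.51 in cells low for both, C1qc at -1.13 and 0.50, and C3 at -1.01 and 0.55. The C1q values of granulocytes include 4 and 2 C1q-high cells (at least 50 C1q UMIs per 10000), and summed C1q in T and NK cells, taken as the floor, moved the same way, at 580 and 234 CPM (256 and 210 CPM without the top cell of each library). Cfp was at -0.90 in granulocytes and 0.25 in classical monocytes. C5ar1 was at -0.49 in granulocytes and 0.48 in the whole Ace gate. Cells in no gate, which enter no comparison, had C1qb at 1078 and 1294 CPM, above the 249 and 107 CPM of T and NK cells.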

How the results depend on the processing

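No paired analysis was possible because each group is 1 library, and no replicate could be left out. The count of genes past the limit in macrophages over classical monocytes was 6 and 5 under all 8 alternatives, and that between libraries in classical monocytes 3 to 5. Between libraries in transitional cells the count of 3 became 6 with gates on UMIs per 10000. In macrophages the count of 1 became 2 with those gates, with no doublets removed and with median ratio scaling, and 0 with the mean over cells. Of 752 log2 ratios recomputed, 713 kept their direction. Of 321 recomputations of values past the limit, 318 kept their direction and 290 stayed past it. These totals include the alternative with a lower gene minimum, which changes the counts of genes alone. Its ratios repeat the main values and keep their direction by construction, so the totals overstate the agreement. C1qa in classical monocytes turned to 0.10 with gates on UMIs per 10000 and 0.16 with doubled minimums, and C5ar1 in granulocytes to 0.27 with gates on UMIs per 10000; the cause was not tested. Cfb in interferon-high over interferon-low macrophages of the library labelled wt went from 1.04 to 0.996 without the cells with the most Cfb UMIs, under the limit of 1. C5ar1 in macrophages ranged from 0.24 to 0.36. Depth limits C3, which had a UMI in 20.5% to 43.0% of macrophages and classical monocytes.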
